A study of Mus musculus with 37 samples.

Results

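B and plasma cells were taken from the injured heart at day 7 by a rule on their own counts. A barcode, the tag that stands for 1 captured cell, was kept when Cd79a, Cd79b, Ms4a1, Jchain and Mzb1 together had 3 counts or more, while the complement genes C1qa, C1qb and C1qc took under 0.3% of its counts and the matrix genes Col1a1, Col1a2, Col3a1 and Dcn under 0.5%. The rule found 86 of 12807 barcodes, with 24 in the ENPP1CKO library and 62 in controls. The nonmyocytes, meaning every heart cell but the muscle cells, came from C57BL/6 mice whose left anterior descending coronary artery had been tied permanently. ENPP1CKO animals carried Col1a2CreERT, a Cre recombinase driven by a collagen gene promoter, and floxed ENPP1 alleles, and tamoxifen was given before and after the injury to delete ENPP1 in fibroblasts. The controls had the same injury and are labelled wild type, and whether they carried Cre or received tamoxifen is not given in the sources used here. The driver is a collagen gene promoter, so the deletion was not directed at B or plasma cells. Each genotype was measured in 1 library, and the number of animals behind a library is not given in the sources used here, so a library and a genotype cannot be told apart and no p-value is given. The comparison addresses which populations of the injured heart, and which genes in them, differ when fibroblasts lack ENPP1.

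B cells carry an antibody on their surface as the antigen receptor, present peptides on MHC class II molecules and circulate between blood, lymphoid organs and tissues such as the heart. A B cell that differentiates into a plasma cell turns off much of that programme and secretes antibody instead, with an endoplasmic reticulum expanded under the transcription factor Xbp1. The heavy chain constant gene sets the class, with Ighm for IgM, Ighd for IgD, Ighg genes for IgG and Igha for IgA, and each cell normally uses 1 type of light chain, kappa (Igkc) or lambda (Iglc genes). The J chain (Jchain) joins IgM and IgA into polymers. ENPP1 is an ectoenzyme that splits extracellular ATP to AMP, and it was first described as plasma cell membrane glycoprotein 1.

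The ENPP1CKO library had 7460 barcodes and 28039559 counts in all, with a median of 3395.5 counts per barcode, and the control library had 5347 barcodes and 22746607 counts, with a median of 3703. Enpp1 itself (chr10:24637914-24712159, minus strand, GRCm38) was at 21.3 CPM (the gene's counts scaled to the same fixed total for every class or library, 95% interval 19.7 to 23.1) in the ENPP1CKO library and at 69.2 CPM (65.8 to 72.7) in the control library. Over barcodes past the collagen limit, Enpp1 was at 28.8 CPM against 119 CPM. Intervals here are exact and cover counting error only. The libraries shared 68 barcodes, of which 0 were members in the ENPP1CKO library and 1 was a member in the control library. Scrublet, a doublet caller, marked 2.02% and 1.29% of barcodes as doublets, and 0 of them were members.

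The members fell into separate groups by the share of their counts that came from the 392 immunoglobulin genes. A member with 10% or more was called plasma-type, and 0 members lay between 5% and 20%. Of the others, 1 member per library met a limit of 2 counts of plasmacytoid dendritic cell genes and was set aside, and the rest were called B-type. The ENPP1CKO library had 12 B-type and 11 plasma-type members, and the control library had 60 B-type members and 1 plasma-type member. Immunoglobulin genes took up to 2.48% of a B-type member's counts in the ENPP1CKO library and up to 4.69% in the control library, with medians of 1.39% and 1.23%. In the ENPP1CKO plasma-type members they took 24.1% to 68.2%, with a median of 52.0%, and in the control plasma-type member 28.9%. These shares chose the classes and are given as a description.

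**Figure D1:**
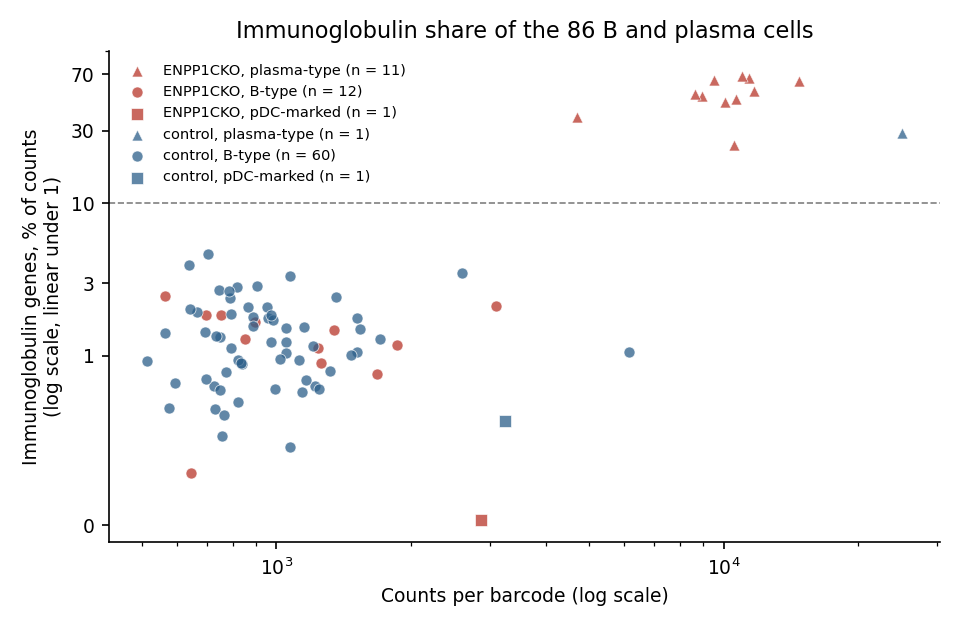
Share of counts from immunoglobulin genes (percent, log axis that is linear under 1) against counts per barcode (log axis) for the 86 members, with each point 1 barcode, colour for library and shape for class. B-type members stay at or below 4.69%, under the dashed limit of 10%, and plasma-type members start at 24.1%, with 11 of them in the ENPP1CKO library and 1 in controls.

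The marker counts below are a description, since the rule used Cd79a, Cd79b, Ms4a1, Jchain and Mzb1, and Igkc and Ighm enter the share that cut the classes. Of markers that neither used, Ebf1 had 29 counts in the ENPP1CKO and 172 in the control B-type members, Fcmr had 7 and 26, and in the ENPP1CKO plasma-type members Sdc1 had 25 and Xbp1 124. Of 10 B cell markers, 10 had counts in the control B-type members and 8 in the ENPP1CKO B-type members, where Pax5 and Cd22 were at 0 with 14897 counts in all. Of 9 plasma cell markers, 9 had counts in the ENPP1CKO plasma-type members and 8 in the control plasma-type member, where Derl3 was at 0. The selection of B-type members set limits on C1q, collagen, T cell and plasmacytoid genes, which held the counts of those genes low in advance. T cell markers gave 1 count in the B-type members of either library, and NK, erythroid, cardiomyocyte and mast cell markers were at 0 in both. Fibroblast markers gave 17 counts in the ENPP1CKO and 82 in the control B-type members (1141 and 1292 CPM). In the same order, dendritic markers gave 6 and 39, all of them Ccr7, which is also a homing receptor gene of lymphocytes. Plasmacytoid dendritic markers gave 8 and 28, with Siglech, Ccr9, Klk1 and Cox6a2 at 0 in both libraries. Endothelial markers gave 0 and 8, platelet 0 and 3, and smooth muscle or pericyte markers 0 and 2. The 10 macrophage markers gave 35 counts in the ENPP1CKO B-type members (1 to 8 per barcode) and 208 in the control ones (0 to 24), with Csf1r, Fcgr1 and Mrc1 at 0 in both libraries. Neutrophil markers gave 0 counts in the ENPP1CKO B-type members and 82 in the control ones, and 81 of those were in 1 barcode of 1536 counts.

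Close to the rule's limit, 2 ENPP1CKO and 13 control members had a marker sum of exactly 3, while 3 and 13 barcodes under both other limits had a sum of 2 and stayed outside. The median sum was 5 in the B-type members of both libraries, whereas the lowest plasma-type sum was 334 in the ENPP1CKO library and 1238 in controls. A further 5 ENPP1CKO and 4 control barcodes reached the sum of 3 but were over a limit. The barcode set aside in the ENPP1CKO library had 9 counts of Siglech and 3 of Ccr9, a pair of plasmacytoid dendritic cell genes, with 5 of Mzb1 and 0 of Cd79a and Igkc. The one set aside in the control library had 2 counts of plasmacytoid genes and 23 of T cell receptor and CD3 genes, with 3 of Cd79a and 15 of Igkc, so its genes go against a plasmacytoid label.

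B-type members were a smaller share of the ENPP1CKO library than of the control library, while plasma-type members were 11 against 1. B-type members made up 0.161% of barcodes (0.0831% to 0.281%) in the ENPP1CKO library and 1.12% (0.857% to 1.44%) in controls. Plasma-type members made up 0.147% (0.0736% to 0.264%) and 0.0187% (0.000473% to 0.104%). The intervals of B-type shares did not overlap, and those of plasma-type shares overlapped between 0.0736% and 0.104%. Members of all classes made up 0.322% (0.206% to 0.478%) and 1.16% (0.890% to 1.48%) of barcodes. With a marker sum of 5 or more required, they made up 0.268% (0.164% to 0.414%) and 0.655% (0.456% to 0.909%). Over the barcodes under both the complement and collagen limits, which leaves out most macrophages and fibroblasts, they made up 1.56% (1.00% to 2.31%) of 1540 and 4.98% (3.84% to 6.34%) of 1244.

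Neighbouring lymphoid and myeloid populations did not show a gap of that size. T and NK barcodes, chosen by the same kind of rule, were 152 (2.04%, 1.73% to 2.38%) in the ENPP1CKO library and 122 (2.28%, 1.90% to 2.72%) in controls. Dendritic barcodes were 84 (1.13%) and 87 (1.63%). Of B-type and T and NK barcodes together, B-type members were 7.32% (3.84% to 12.4%) in the ENPP1CKO library and 33.0% (26.2% to 40.3%) in controls.

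B-type members were shallow, which bears on how many a library can show. Their median was 1070 counts (565 to 3100) in the ENPP1CKO library and 888.5 (514 to 6157) in controls, against 10526 (4691 to 14756) for ENPP1CKO plasma-type members. Among barcodes under 1000 counts, 6 of 542 (1.11%) in the ENPP1CKO library and 38 of 454 (8.37%) in the control library were B-type. Among barcodes with 1000 counts or more, the share was 0.0867% (0.0318% to 0.189%) against 0.450% (0.282% to 0.680%). With each of those barcodes thinned to 1000 counts and the rule applied again, B-type members were 0.0578% (0.0158% to 0.148%) and 0.347% (0.203% to 0.556%), and plasma-type members 0.173% (0.0897% to 0.303%) and 0.0204% (0.000517% to 0.114%). Of the 12 ENPP1CKO barcodes that were plasma-type after thinning, 1 was no member before it. At that depth the share of all members was 0.231% (0.132% to 0.375%) against 0.368% (0.218% to 0.581%), and these intervals overlapped. The median mitochondrial share was 4.69% in ENPP1CKO B-type members, with a highest value of 19.2%, and 3.36% in control ones, with a highest of 6.53%, and its part in these shares was not tested.

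All 11 plasma-type members of the ENPP1CKO library were led by Igha, the constant gene of IgA (chr12:113254830-113260236, minus strand, GRCm38), and by Igkc. Igha counts in cells 1 to 11 were 1641, 1340, 2177, 752, 2113, 1225, 926, 838, 464, 1000 and 1342. Igkc counts in the same order were 5847, 3739, 4141, 5307, 7159, 6112, 774, 3685, 2016, 3452 and 3008. Every one of these cells held at least 464 counts of Igha and 774 of Igkc, and Ighm and Ighd were at 0 in 11 of 11. Jchain counts were 974, 936, 1154, 407, 1375, 920, 315, 601, 294, 702 and 799. The ratio of Igha to Igkc ranged from 14.2% to 120%, with cell 7 the only one in which Igha exceeded Igkc. Jchain amounted to 7.67% to 40.7% of Igkc. Summed over the 11 cells, Igkc was at 404564 CPM, Igha at 123569 CPM and Jchain at 75807 CPM, so that these 3 genes took more counts than all others together. 

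**Figure D2:**
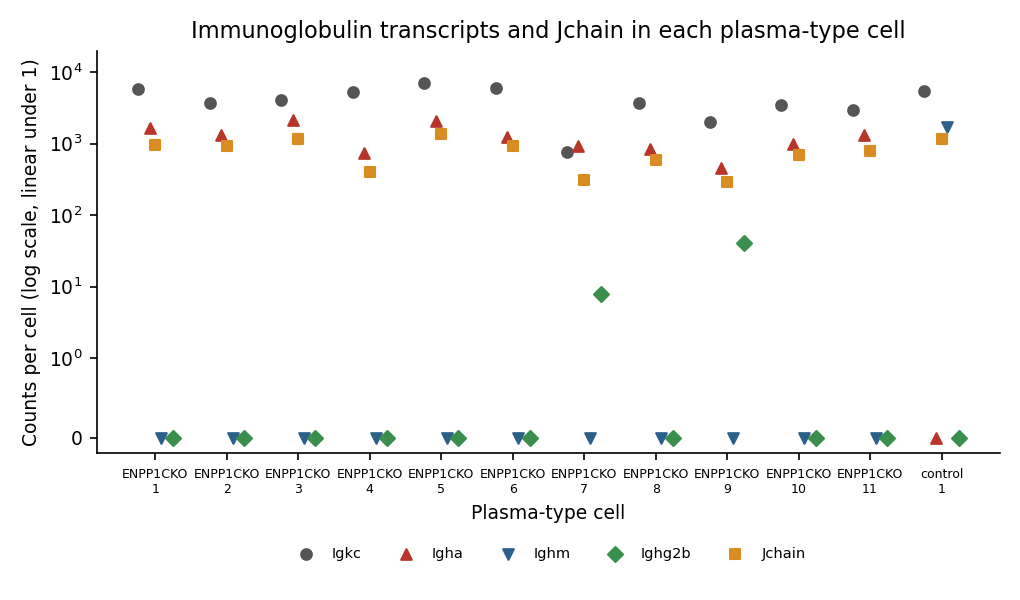
Counts per cell (log axis that is linear under 1) of the heavy, light and J chain genes in the 11 plasma-type members of the ENPP1CKO library and the 1 of the control library, with each point 1 cell. Igha lies between 464 and 2177 counts in every ENPP1CKO cell and at 0 in the control cell, which has 1710 counts of Ighm.

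IgG transcripts were rare. Ighg2b had 8 counts in cell 7 and 41 in cell 9 and 0 in the other ENPP1CKO plasma-type cells, and Ighg1, Ighg2c, Ighg3 and Ighe were at 0 in all of them. Kappa made up 97.6% to 99.9% of light chain constant counts per cell, with a median of 99.6%. Lambda genes still gave counts in these kappa cells, with 150 of Iglc2 in all and 436 of the lambda variable gene Iglv1 spread over 10 of 11 cells. Whether those counts are transcripts of the same cells or of others was not tested.

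The variable genes, which differ between B cell clones, were mostly different from cell to cell. With 3 counts or more required, the leading kappa variable gene could be read in 10 ENPP1CKO plasma-type cells, and it was 1 of 9 different genes. Igkv10-94 had 34 counts in cell 1, Igkv16-104 had 22 in cell 5, Igkv3-1 had 18 in cell 10, Igkv12-46 had 12 in cell 8 and Igkv4-80 had 10 in cell 6. Cells 2 and 3 shared Igkv5-43, with 11 and 8 counts, but the heavy chain variable gene was Ighv1-42 with 6 counts in cell 2 and Ighv14-4 with 3 in cell 3. Cells 6 and 7 were led by Ighv5-17 with 7 counts and Ighv5-16 with 3, which makes 4 different heavy genes in the 4 cells where one could be read. These counts are low beside those of the constant genes, and the assignment among near-identical variable genes is uncertain.

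Besides antibody, the ENPP1CKO plasma-type cells shared the chemokine receptor Ccr10 (chr11:101172997-101175443, minus strand), which binds Ccl28 and Ccl27 and is known from IgA plasma cells of mucosal tissues. Ccr10 counts in cells 1 to 11 were 4, 1, 2, 2, 10, 3, 2, 3, 1, 1 and 2, so that 11 of 11 cells had the transcript, at 277 CPM (188 to 394). Ccr10 was at 0 in the B-type members of both libraries and in the control plasma-type member. The gut receptor gene Ccr9 was at 0 in the same 11 cells. Itga4 and Itgb7, the chains of a mucosal integrin, gave 12 and 5 counts, Selplg, an adhesion ligand, gave 12, and Cxcr3 gave 3, while Cxcr4, a receptor that holds plasma cells in the bone marrow, was at 0.

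Of plasma cell factors, Mzb1, a chaperone of IgM and IgA assembly, had 525 counts, Xbp1 had 124, and Sdc1, the surface proteoglycan syndecan, had 25 in 9 of 11 cells. Tent5c, which stabilises immunoglobulin mRNA, and Eaf2, an elongation factor cofactor, had 30 each, and Slamf7 had 15. Prdm1, the repressor that drives plasma cell differentiation, gave 1 count and Irf4 gave 6, so neither was measured well at this depth. Slpi, a secreted protease inhibitor, had 217 counts in 9 cells with at most 46 in any of them, and Cacna1s, a calcium channel subunit gene, had 49 in 9 cells. Other transcripts were uneven. Cxcl10 gave 72 counts in 5 cells with 32 in the highest, Prg2 gave 24 in 4 cells with 12 in the highest, Vpreb3 gave 25 in 5 cells, and 35 of the 40 Fabp4 counts were in cell 11, which held 42 counts of endothelial markers.

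The plasma-type and B-type members of the ENPP1CKO library were set against each other with the immunoglobulin genes left out of the totals, a comparison chosen after their values were seen. The classes were cut on immunoglobulin share, so the values are a description. Genes with 20 counts or more in both classes together were used, and a gene counted as past the fold when its ratio was at least 2-fold and its interval left out a log2 ratio of 0. Of 425 genes, 96 (22.6%) were higher and 67 (15.8%) lower in the plasma-type members, with a median log2 ratio of 0.18. With immunoglobulin genes kept in the totals, 33 were higher and 183 lower, so the direction that held more genes turned on that choice. Of the 18 listed genes of the secretory machinery, 17 had enough counts. Their B-type counts were 0 to 8 each, so they passed the minimum through the plasma-type members, and no count over the list is read. Hsp90b1, an endoplasmic reticulum chaperone, was at 8237 CPM against 545 CPM, a log2 ratio of 3.92 (2.93 to 5.14). Hspa5, the chaperone BiP, was at 4880 CPM against 545 CPM, a log2 ratio of 3.16 (2.16 to 4.39). Log2 ratios were 4.32 for Ssr4, a subunit of the translocon-associated complex, and 4.30 for Sec11c and 4.91 for Spcs2, subunits of signal peptidase. Txndc5, a disulfide isomerase, was at 4.45 and Derl3, which takes misfolded proteins out for degradation, at 3.57. Dnajb9, a cochaperone of BiP, was not past the fold, at 0.38 (-1.05 to 2.13).

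Plasma cell factors also passed the minimum of 20 counts through the plasma-type members, so they are given singly. The log2 ratio was 5.13 (2.63 to 10.45) for Xbp1 and 4.22 for Mzb1, which the rule used, as it did Jchain. The genes Sdc1, Tent5c, Eaf2, Jchain, Ccr10 and Slpi were at 0 in the B-type members, and set against a floor of 3 counts in that class their log2 ratios were at least 1.24 for Sdc1, 1.55 for Ccr10, 4.36 for Slpi and 9.64 for Jchain. Cell by cell, the secretory list took 18786 to 95608 CPM of the remaining counts in the 11 plasma-type members. In the 12 B-type members it took 1462 to 7143 CPM. These cells come from the same library and are not replicates. Ranges over all genes were not compared in this way, so the values are a description.

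Several secretory genes are known targets of the unfolded protein response, in which ATF6 and XBP1 act through the endoplasmic reticulum stress response element of their promoters. The letters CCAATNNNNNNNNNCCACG, in which N stands for any base, were searched on both strands from 250 bases before to 50 bases after each gene's start in RefSeq (GRCm38.p6). They occurred in 37 of 26742 promoters (0.138%), and in 5 of the 16 secretory list genes that had a promoter in that table, namely Creld2, Derl3, Hsp90b1, Hspa5 and Pdia6. Of the genes higher in plasma-type members, 7 of the 77 with a promoter held the letters. The counts were 0 of the 47 among those lower and 7 of 313 (2.24%) over all genes compared. At that share nothing is read from the 0 of 47. The secretory genes among those higher passed the minimum of counts through the plasma-type members, as stated above. The 7 of 77 is therefore a description, and it is not read against the other sets. None of the 10 plasma cell factor, 8 MHC class II and 12 B cell receptor genes with a promoter held them. The promoters of Hspa5 (chr2:34771840-34772139, plus strand), Hsp90b1 (chr10:86705395-86705694, minus strand) and Derl3 (chr10:75893148-75893447, plus strand) are shown 5′ to 3′ because they belong to the chaperones and the degradation factor described above, with the matched letters in capitals. A match is a description and shows no binding.
Hspa5: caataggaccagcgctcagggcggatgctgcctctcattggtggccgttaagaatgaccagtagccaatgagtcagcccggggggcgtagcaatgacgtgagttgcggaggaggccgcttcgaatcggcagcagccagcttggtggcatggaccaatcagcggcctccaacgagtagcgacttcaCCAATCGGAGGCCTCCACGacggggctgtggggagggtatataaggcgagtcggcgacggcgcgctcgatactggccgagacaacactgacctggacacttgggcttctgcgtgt
Hsp90b1: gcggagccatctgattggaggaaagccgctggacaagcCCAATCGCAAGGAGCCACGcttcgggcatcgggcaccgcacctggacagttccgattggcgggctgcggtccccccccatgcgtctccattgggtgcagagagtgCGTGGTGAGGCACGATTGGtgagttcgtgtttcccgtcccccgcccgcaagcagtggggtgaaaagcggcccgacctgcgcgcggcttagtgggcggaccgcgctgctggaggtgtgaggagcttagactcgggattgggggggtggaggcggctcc
Derl3: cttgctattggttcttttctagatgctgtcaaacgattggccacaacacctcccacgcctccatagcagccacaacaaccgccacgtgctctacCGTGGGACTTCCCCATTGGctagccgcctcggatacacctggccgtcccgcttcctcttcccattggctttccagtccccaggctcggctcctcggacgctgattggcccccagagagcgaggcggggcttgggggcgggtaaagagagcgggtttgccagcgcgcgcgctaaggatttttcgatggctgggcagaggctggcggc
The match began 65 bases before the start in Hspa5 and 156 before it in Derl3, and Hsp90b1 had 2 matches, at 212 and 107 bases before it. In Derl3 and in the match of Hsp90b1 nearer the start the letters lie on the opposite strand and read as their reverse complement.

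Of 11 listed genes of MHC class II presentation, 4 had enough counts. H2-Aa and H2-Eb1, with 14 and 18 plasma-type counts, reached the minimum only through the B-type members, so no count over the list is read and the genes are given singly. H2-Aa was at 270 CPM against 5518 CPM, a log2 ratio of -4.35 (-5.29 to -3.52), and H2-Eb1 and H2-Ab1 were at -2.97 and -2.70. Cd74, the invariant chain, was at 10089 CPM against 20574 CPM, a log2 ratio of -1.03 (-1.24 to -0.82), and it had counts in 11 of 11 plasma-type cells. The receptor chains Cd79a and Cd79b, which the rule used, were lower at -1.72 and -1.69, and Cd81 at -0.46 was not past the fold. Of 3 B lineage transcription factors with enough counts, Ebf1 was lower at -3.87, while Pou2af1 at -0.05 and Mef2c at -0.96 were not past the fold. Vpreb3, a B lineage gene, had 25 counts against 0, a log2 ratio of at least 1.24. It reached the minimum only through the plasma-type members and is given singly. The activation gene Cd83 was lower at -3.82 and Plac8 at -3.59. Btg1, an antiproliferative gene, had 2 counts against 35, a log2 ratio of -5.95 (-9.05 to -3.99). Ebf1, Cd83, Plac8 and Btg1, with 7, 7, 10 and 2 plasma-type counts, also reached the minimum only through the B-type members and are given singly. Of 75 genes of cytosolic ribosomal proteins, 2 were higher and 25 lower, with a median of -0.84, beside 22.6% higher, 15.8% lower and a median of 0.18 over all 425 genes. Cd52, a small surface glycoprotein of lymphocytes, and B2m, the light chain of MHC class I, were higher at 2.54 and 1.92.

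**Figure D3:**
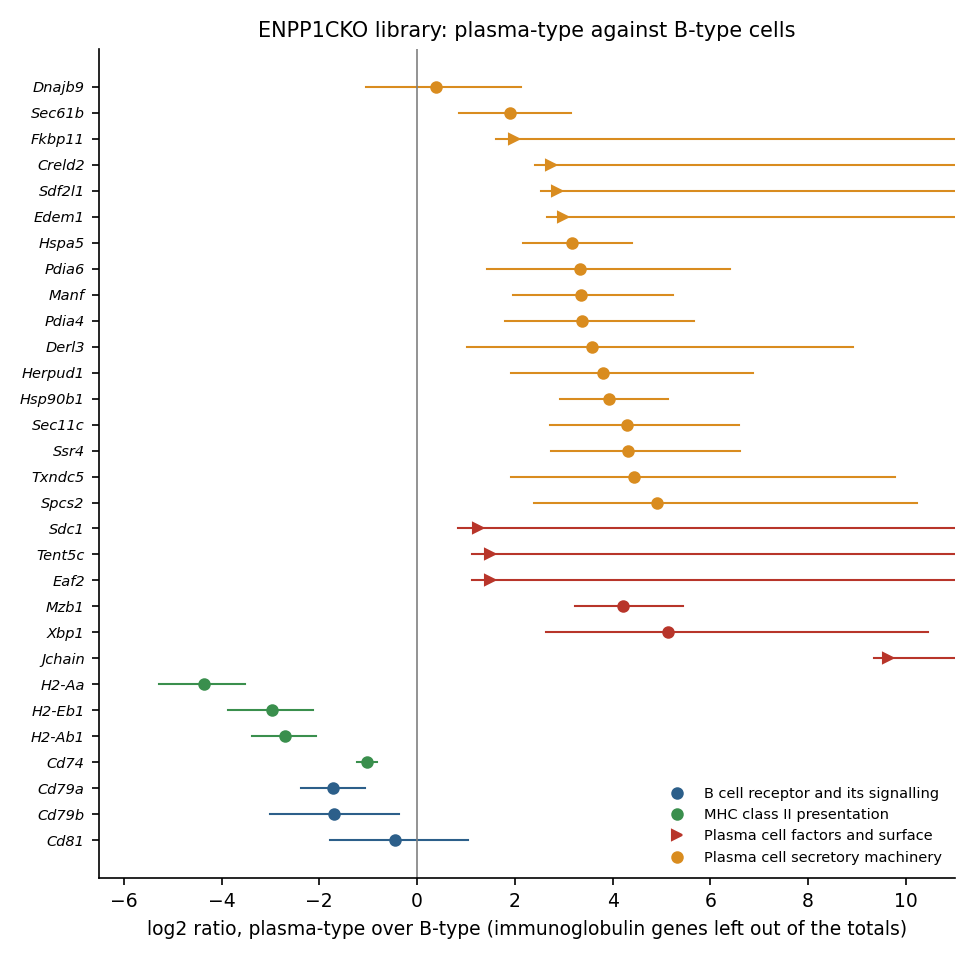
Log2 ratio of plasma-type over B-type members of the ENPP1CKO library for genes of the secretory, plasma cell, MHC class II and B cell receptor lists, with circles for the ratio, triangles for lower bounds of genes at 0 in B-type members, and bars for exact 95% intervals, which cover counting error only and run to the axis end for the bounds. Secretory genes such as Hsp90b1 (3.92) lie to the right of 0 and MHC class II genes such as H2-Aa (-4.35) to the left.

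The single plasma-type member of the control library differed in class. It had 25047 counts over 3686 genes, with 1710 counts of Ighm, 5441 of Igkc, 1167 of Jchain and 0 of Igha and Ighg genes. Mzb1 was at 64 counts, Xbp1 at 29 and Sdc1 at 16. It also had 308 counts of Cd74, 122 of H2-Aa and 128 of H2-Ab1, and its MHC class II list took 37546 CPM of the counts outside immunoglobulin genes, above the 1876 to 25024 CPM of the 11 ENPP1CKO cells. The secretory list took 17342 CPM, below the lowest of those cells (18786 CPM). The cell cycle list had 101 counts (5668 CPM), with Birc5 at 12, Top2a at 9 and Mki67 at 6, against 27 counts (521 CPM) in the 11 ENPP1CKO cells together, where the highest cell was at 2127 CPM. The same barcode had 37 counts of Lyz2 and 10 of C1qb, and the part of macrophage RNA or of a second cell in it was not tested. With 1 such cell, nothing can be said of its library beyond it.

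B-type members carried IgM and other B cell transcripts in both libraries. Ighm (chr12:113418558-113422730, minus strand, GRCm38) was at 2282 CPM (1581 to 3189) in the ENPP1CKO library and 2332 CPM (1972 to 2740) in controls. Igkc (chr6:70726435-70726966, plus strand) was at 9868 CPM and 9708 CPM, with lowest, median and highest counts of 1, 11 and 48 per ENPP1CKO member and of 0, 8 and 51 per control member. Igkc was present in 12 of 12 and 58 of 60 B-type members, at medians of 1070 and 888.5 counts, while it was present in 13.8% and 2.46% of T and NK barcodes at medians of 1547.5 and 1656 counts. Cd79a (chr7:24897381-24902197, plus strand), the signalling chain of the receptor that the rule used, ranged from 1 to 7 counts per ENPP1CKO member with a median of 3.5 and from 0 to 10 per control member with a median of 3. The B lineage factor Ebf1 had 29 and 172 counts. Bank1, a scaffold of receptor signalling, had 7 and 22 counts, and Fcmr, the IgM receptor, had 7 and 26. Pax5 had 0 and 9 counts and Fcer2a, the low-affinity IgE receptor of follicular B cells, 0 and 6, and neither 0 is a difference at this depth, since 3 counts in the ENPP1CKO B-type members equal 201 CPM.

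Where a heavy chain could be read (3 counts or more), it was Ighm in 5 of 6 ENPP1CKO and 21 of 23 control B-type members and Ighd in the others. Igha gave 1 count in each of 3 ENPP1CKO B-type members and 0 in the control ones. Of ENPP1CKO barcodes outside the members with under 5% immunoglobulin counts, 7.22% had an Igha count. Light chains were mostly Igkc in 10 of 11 ENPP1CKO and 53 of 59 control B-type members with 3 counts or more, and mostly lambda in 0 and 4. IgG counts were limited to 1 control member with 5 of Ighg2b beside 29 of Ighm and 1 other control member with 2 of Ighg1. Germinal centre genes Bcl6, S1pr2 and Rgs13, and the recombination and surrogate light chain genes Rag1, Rag2, Vpreb1 and Igll1 of immature B cells, were at 0 in the B-type members of both libraries. Tbx21, Itgax and Fcrl5 of age-associated B cells were at 0 as well.

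**Figure D4:**
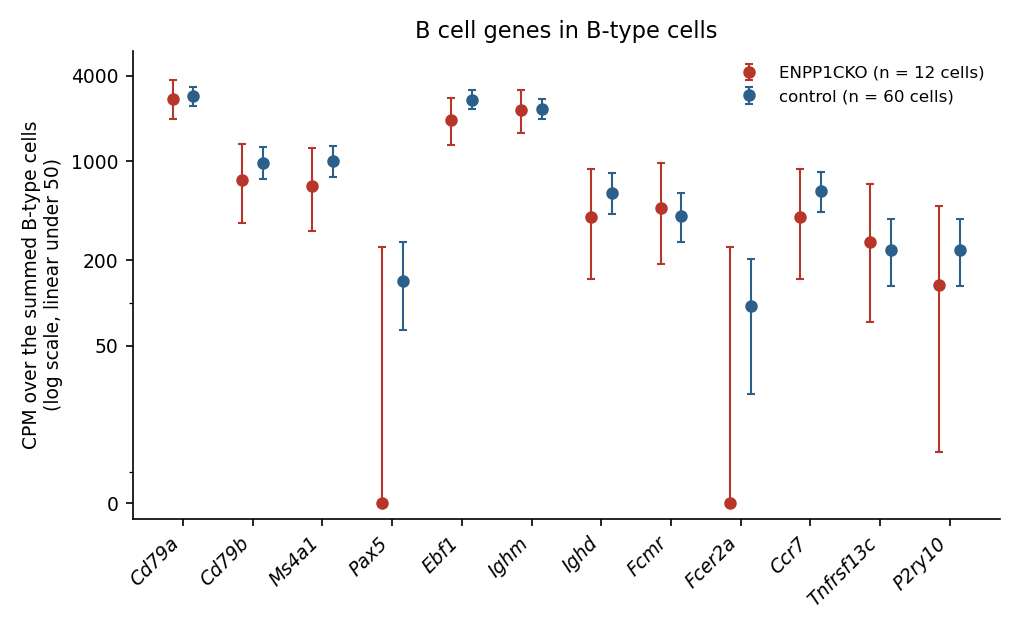
Levels in CPM (log axis that is linear under 50) of B cell genes in the B-type members of the ENPP1CKO (12 members) and control (60 members) libraries, with points for the level and bars for exact 95% intervals. Intervals of the 2 libraries overlap for genes such as Ighm (2282 and 2332 CPM) and Cd79a (2752 and 2868 CPM).

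Between genotypes, the number of genes past the fold in the B-type members turned on the scaling. Of 480 genes with 20 counts or more together, 15 (3.12%) were higher and 7 (1.46%) lower past the fold in the ENPP1CKO B-type members, with a median log2 ratio of 0.00. With another scaling, a TMM factor computed from a trimmed set of genes that moved every log2 ratio by -0.57, 0 were higher and 70 (14.6%) lower. Of the B cell genes that chose the members or enter the class cut, Cd79a, Ms4a1, Ighm, Igkc and Ighd were not past it, which the selection conditions, and Ly6d, which neither used, was lower. Cd79a had a log2 ratio of -0.06 (-0.59 to 0.44), Ighm -0.03 (-0.61 to 0.51), Igkc 0.02 (-0.25 to 0.29), Ms4a1, the CD20 gene, -0.59 (-1.71 to 0.38) and Ighd -0.57 (-2.11 to 0.68). Of 8 MHC class II genes, 0 were higher and 0 lower, with Cd74 at -0.16 (-0.35 to 0.02) and H2-Aa at -0.17 (-0.53 to 0.18). Per member, Cd74 ranged from 9 to 55 counts with a median of 21.5 in the ENPP1CKO library and from 6 to 62 with a median of 22.5 in the control library. Of 76 ribosomal protein genes, 0 were higher and 0 lower. With the TMM factor Ms4a1 was lower past the fold, as it was at -2.65 (-8.01 to -0.03) with members thinned to 1000 counts, and H2-DMa was lower, 1 of 8 MHC class II genes beside the 14.6% over all genes, while 0 of 76 ribosomal protein genes were called.

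The genes that were past the fold in B-type members had few counts. Among those higher, S100a6, a calcium-binding protein gene of activated and memory lymphocytes, had 18 and 27 counts, a log2 ratio of 1.51 (0.56 to 2.42), with the 18 counts in 4 of 12 members. Gpr171, a G protein-coupled receptor gene, was at 1.54 with 15 and 22 counts, and Cd69, which holds activated lymphocytes in tissue, at 1.45 with 9 and 14 counts, of which 5 of the 9 were in 1 member. Crip1, a LIM protein gene, was at 1.12 with 25 counts in 5 of 12 members, Nop53, a ribosome assembly factor, at 1.39, Eif5a, a translation factor, at 1.30 and Foxn3, a transcription factor, at 1.80. The mitochondrial subunit gene mt-Nd4 was at 1.10 (0.60 to 1.59), with 1 of 12 mitochondrial transcripts higher past the fold, against 3.12% over all genes, and a median of 0.56 over them. With the TMM factor their median was -0.01 and 0 were higher and 1, mt-Nd2, lower, against 14.6% lower over all genes. These values stand beside the higher mitochondrial share of the ENPP1CKO B-type members given above. Cd83 at 0.83 and mt-Co3 at 0.77 had intervals above 0 without reaching the fold. Without the deepest B-type barcode of each library, 6 of the 15 higher genes stayed past the fold, 3 had too few counts and 6 were not past it, among them S100a6 at 0.98 (-0.17 to 2.04) and Crip1 at 0.77 (-0.23 to 1.67). With members thinned to 1000 counts, 3 of the 15, S100a6, Crip1 and mt-Nd4, had enough counts, and all 3 stayed past the fold.

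Among those lower, Ybx1, an RNA-binding protein gene, had 2 and 45 counts, a log2 ratio of -2.40 (-5.49 to -0.46), and Jund, an AP-1 subunit, had 2 and 46, at -2.43 (-5.52 to -0.50). Psma3, a proteasome subunit, was at -2.61, Naca, a chaperone of nascent chains, at -1.02 and Ly6d, a surface marker of B lineage cells, at -1.03. S100a8 and S100a9, genes of neutrophils, were at 0 against 39 and 40 counts, but nearly all of the control counts were in the 1 barcode with 81 neutrophil marker counts, and without it both had too few counts, Psma3 at -2.59 (-7.95 to 0.02) was not past the fold and the other 4 were. Without the deepest barcodes Psma3, Naca and Ly6d were not past it, and thinned to 1000 counts Jund, Naca and Ly6d were not. With a marker sum of 5 or more, Ybx1 at -1.96 (-5.08 to 0.02) was not past it. Of 9 immediate early genes, 0 were higher and 1, Jund, was lower, beside 3.12% and 1.46% over all 480 genes. Malat1, a nuclear RNA, was at -0.53 (-0.70 to -0.37), not past the fold.

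The receptors of the B cell survival factors BAFF and APRIL had too few counts for a ratio. Tnfrsf13c, the BAFF receptor, had 4 counts in the ENPP1CKO and 15 in the control B-type members, and 1 count in the ENPP1CKO plasma-type members. Tnfrsf17, the APRIL receptor BCMA, had 9 counts in the ENPP1CKO plasma-type members, 3 in the control one and 0 in B-type members. Tnfrsf13b, the receptor TACI, had 8 counts in ENPP1CKO plasma-type members and 1 in the B-type members of each library. With immunoglobulin genes kept in the totals, this is 71.5 and 67.1 CPM in the ENPP1CKO classes. The B-type value rests on 1 count, under the floor of 3 counts, so the classes are not compared. No member had a count of the ligands Tnfsf13b and Tnfsf13, and over the other barcodes Tnfsf13b, the BAFF gene, was at 6.56 CPM in the ENPP1CKO library and 4.99 CPM in controls.

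Of 14 homing receptor genes, 1, Ccr10, had enough counts to compare the classes, and the others are given as counts. Ccr7, which guides lymphocytes towards lymph vessels and nodes, had 6 and 39 counts in the B-type members, S1pr1, the exit receptor, 6 and 13, and Cxcr5, the follicle receptor, 2 and 4. All 3 were at 0 in the 11 ENPP1CKO plasma-type cells. Between libraries, Ccr7 was at -0.61 (-2.14 to 0.64) in B-type members, not past the fold. Over the other barcodes the ligand Cxcl12 was at 187 CPM in the ENPP1CKO library and 127 CPM in controls, Cxcl13, the follicle chemokine, at 1.68 and 5.74 CPM, Ccl21a at 117 and 109 CPM, and Ccl28, the ligand of Ccr10, at 0.0717 and 0.221 CPM.

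Genes of extracellular nucleotide handling had few counts in the members, and 3 counts in the ENPP1CKO B-type members equal 201 CPM. Enpp1 gave 1 count in the 11 ENPP1CKO plasma-type cells, 1 in the control plasma-type cell, 1 in the control B-type members and 0 in the ENPP1CKO ones. Entpd1 gave at most 2 counts in any class, and Nt5e, the enzyme that turns AMP to adenosine, and Adora2a, an adenosine receptor, gave 0. P2ry10, a lysophospholipid receptor of lymphocytes, had 2 and 15 counts in B-type members and P2rx4, an ATP-gated channel, 4 and 8.

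Against the rest of their libraries, the members stood out by the genes that chose them and by a few that did not. For B-type members, Fcrla, a Fc receptor-like protein of B cells, was at 410 CPM in the control library against 1.15 CPM in other barcodes, and Ly6d was at 1513 CPM against 4.90 CPM. In the ENPP1CKO library Cd74 was at 20273 CPM in B-type members, 18057 CPM in dendritic barcodes and 127 CPM in T and NK barcodes, so B-type members lay near the dendritic barcodes and far above the T and NK barcodes in this transcript. H2-Aa was at 5437 CPM in B-type members, 7594 CPM in dendritic barcodes and 32.7 CPM in T and NK barcodes.

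The antibody transcripts were also counted in other barcodes. In droplet data, RNA free in the suspension can add counts of a gene to barcodes of cells that lack it. The 11 plasma-type cells held 81.3% of all Igkc, 84.2% of all Igha and 83.3% of all Jchain counts of the ENPP1CKO library. Of the 7435 ENPP1CKO barcodes that were no members and had under 5% immunoglobulin counts, 20.7% had Igkc, 7.22% had Igha and 3.69% had Jchain, with a median of 3396 counts. In the control library, of 5285 such barcodes with a median of 3731 counts, 6.00% had Igkc, 0.0189% had Igha and 0.946% had Jchain. Thinned to 1000 counts, Igkc was in 6.60% and 1.60% of those barcodes and Igha in 2.15% and 0. In the ENPP1CKO library the ratio of Igha to Igkc counts was 30.5% in plasma-type members. Among barcodes that were no members and had under 5% immunoglobulin counts, it was 32.0% over the complement limit and 30.8% over the collagen limit. It was 32.0% in the dendritic gate with 8 Igha counts, and 47.8% in the T and NK gate with 11. Ighm had counts in 30.2% of ENPP1CKO barcodes over the complement limit and in 0.337% of those over the collagen limit. In the control library these shares were 21.9% and 2.48%. Whether the counts of these genes in other barcodes are free RNA or transcripts of those cells was not tested.

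**Figure D5:**
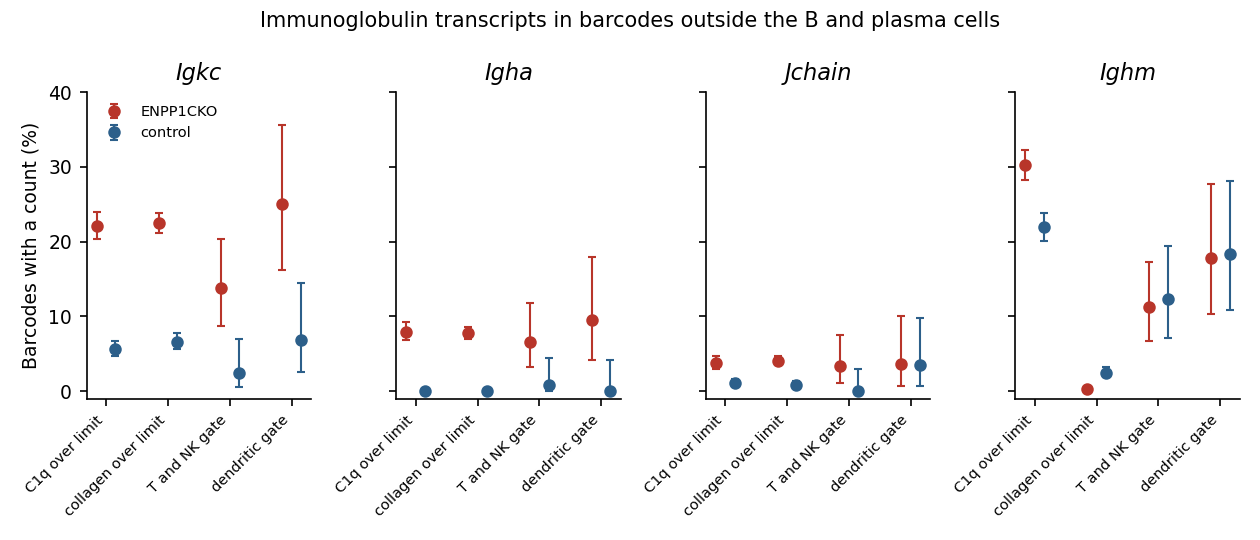
Share of barcodes (percent) with a count of each antibody gene among barcodes that were no members, in the sets over the complement (C1q) limit, over the collagen limit and in the T and NK and dendritic gates, for both libraries, with exact 95% intervals as bars. Igha is at 7.93% and 7.74% in the ENPP1CKO sets over these limits and at 0 in the control ones, while Ighm is at 30.2% over the complement limit and 0.337% over the collagen limit in the ENPP1CKO library.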

How the data were processed

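Nonmyocytes of injured hearts were measured at day 7 in 1 single-cell library per genotype. The deposited tables hold raw counts per gene and barcode, made by the authors with Cell Ranger, and the submitters' processing notes name mm10. Ensembl identifiers were matched to symbols for 30934 of 31053 genes. Barcodes were chosen by the stated rule. The members, lists and tests were chosen with earlier results of these data known. Plasma-type meant 10% or more of counts from immunoglobulin genes, plasmacytoid-marked or T-marked 2 or more counts of the marker genes, and B-type all others. Counts were summed per class and divided by the class total. Levels had exact Poisson, shares Clopper-Pearson and ratios conditional binomial 95% intervals. Ratios were given for genes with 20 counts or more together. Named genes were all of the antibody, receptor, plasma cell, homing and nucleotide lists, the largest ratios among genes with 40 counts together and 5 in each library, and the genes highest over other barcodes among those with 50 counts in members. Genes outside this were chosen after their values were seen. The ratio procedure was tested on simulated data. Python 3.11.15, scipy 1.17.1, scanpy 1.11.5 with Scrublet and edgeR 4.0.16 for the TMM factor were used, and seeds were fixed. The alternatives were other limits, thinning to 1000 counts, doublet removal and other scalings. Bulk samples of the series were not used here.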

Additional observations from a re-analysis of the deposited data

Results flagged for a closer look

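A signal outside the members appeared in 1 ENPP1CKO barcode that the rule left out because its complement genes took 0.378% of its counts. Immunoglobulin genes took 50.8% of its 20635 counts, with 8330 of Igkc, 2010 of Igha, 1417 of Jchain, 8 of Ccr10 and 117 of Lyz2. The next highest share outside the members was 1.53% in the ENPP1CKO library and 3.06% in controls. Igha was found in 7.22% of the ENPP1CKO barcodes that were no members and had under 5% immunoglobulin counts, against 0.0189% in the control library. Ighm was found in 30.2% of the ENPP1CKO barcodes over the complement limit, above the 21.9% of the same set in the control library. No group comparison had replicates, so differences between groups could not be tested.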

How the results depend on the processing

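No paired analysis was possible because each genotype has 1 library. Depth limits the values, since B-type members had medians near 1000 counts and 3 counts in the ENPP1CKO class equal 201 CPM. The share of members moved to 0.268% in the ENPP1CKO library and 0.655% in controls with a marker sum of 5. With thinning it moved to 0.231% and 0.368%. Genes higher in ENPP1CKO B-type members (15) became 67 with all members (0 of the 15 among them), 7 with a sum of 5 (6 of the 15), 6 thinned (3), 0 with TMM, 2 and 28 with 50 and 10 counts together (2 and 15), and 8 without the deepest barcodes (6), an alternative chosen after seeing the data. Those lower (7) became 425 with all members (7 of the 7 among them), 6 with a sum of 5 (3), 4 thinned (2) and 70 with TMM (7). With 50 and 10 counts together they became 2 and 7 (2 and 7). Without the deepest barcodes they became 5 (4), and without the barcode high in neutrophil markers 4 (4). With all members pooled, genes higher in B-type members turned to S100a6 -1.004, Nop53 -0.34, Eif5a -0.32, Crip1 -1.04, mt-Nd4 -0.30, Atp6v0b -0.58, Cd69 -0.50, Fxyd5 -1.26, Llph -0.36, Atp5b -0.031, Sept7 -0.87, Foxn3 -0.50, Atp5mpl -0.17 and Rpl27-ps3 -0.50, since plasma-type cells then hold 111824 of 129588 ENPP1CKO counts. Without immunoglobulin genes in the total, ENPP1CKO plasma-type levels were 163522 CPM for Jchain, 10127 for Mzb1, 2392 for Xbp1 and 598 for Ccr10. For plasma-type over B-type, 96 higher and 67 lower genes became 33 and 183 with immunoglobulin genes kept, and 48 and 42 with 50 counts together. At 10 chain counts per member, B-type members led by Ighm were 3 of 3 in the control and 1 of 1 in the ENPP1CKO library, and 29 of 32 control ones were mostly Igkc. Of the other comparisons of a single value with its value under an alternative, 378 stayed inside the main interval and 48 moved. A gene not past the fold could change sign and still stay inside that interval, so the 378 did not all have to keep their direction.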
